A study of Mus musculus with 2 samples.

Results

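The genes described here copy DNA and divide the cell. The set held 37 of the 28692 genes listed in the files, chosen by symbol: 18 that are read mainly in S phase, when DNA is replicated, and 19 that are read mainly in G2 and mitosis (G2/M). Their transcripts were counted in single mouse hepatocytes, which make up most of the liver and do its metabolic work, taken from C57BL/6 liver and cultured in 3 dimensions. Every one of the 37 had at least 50 UMIs (counted transcript molecules) over both libraries.

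The induction library came from cells in a medium with 3 uM dexamethasone, a synthetic glucocorticoid. The expansion library came from cells in a medium to which 3 uM of the GSK3 inhibitor CHIR99021 had been added, and 100 ng/mL of the cytokine TNFa, and without dexamethasone. Cells of both libraries were embedded in growth-factor reduced matrigel and shared a William E medium with B27 and N2 supplements, the growth factors EGF (25 ng/mL) and HGF (50 ng/mL), 10 uM Y27632 (a ROCK inhibitor), 1 uM A83-01 (a TGF-beta receptor inhibitor), 100 mM nicotinamide and 1.25 mM N-acetylcysteine. Each medium had 1 library, so no difference has a replicate check or a test, the 3 agents that differed cannot be told apart, and intervals are 95% intervals for counting error only. Those of levels and ratios count every UMI as independent, so spread between cells is left out and they can be too narrow. The labels name no animals, sexes or time in culture.

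Adult hepatocytes rest outside the cell cycle and can return to it after injury or in culture. In late G1, E2F transcription factors are released from retinoblastoma proteins and switch on the genes for origin licensing, the replication fork and nucleotide supply. A later group, bound by B-MYB, FOXM1 and the MuvB complex at CHR elements, supplies the cyclins, kinases and spindle proteins of mitosis. Transcripts of both groups are scarce in resting cells.

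The promoters of the 37 genes were searched for the letters of these elements. The E2F letters searched on both strands were TTCCCGC, followed by the variants spelled TTCGCGC, the one spelled TTGCCGC, and lastly the one spelled TTGGCGC. The CHR letters searched were TTTGAA, with the variant spelled TTCGAA, and the box searched beside them was CCAAT, also on both strands. E2F strings can overlap each other, and TTGGCGC read on the other strand shares letters with CCAAT. RefSeq promoter windows (GRCm38.p6, 250 bases before to 50 after the start) were matched for 32 of the 37 genes; Aurkb, Mcm4, Ccna2, Tpx2 and Gins2 were not matched. An E2F string was found for 9 of 16 S phase genes and 4 of 16 G2/M genes, against 10.9% of all 27025 genes with a window. A CHR string was found for 2 of 16 S phase genes and 12 of 16 G2/M genes, against 21.7% of all genes. CHR and CCAAT strings together were found for 2 of 16 S phase genes and 12 of 16 G2/M genes, against 8.61% of all genes. A match is a run of letters, not a site shown to be bound.

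A few of these promoters are shown because they carry the strings that divide the groups: Mcm6 and Rrm1 for the S phase genes, Cdk1 and Mki67 with both kinds of string, and Top2a and Ube2c with CHR strings alone. Each is the 150 bases before the RefSeq start, 5′ to 3′ along the gene's strand, with E2F and CHR strings in capitals. They lie at chr1:128359706-128359855 (minus strand), chr7:102441545-102441694 (plus strand), chr10:69352913-69353062 (minus strand), chr7:135716380-135716529 (minus strand), chr11:99024190-99024339 (minus strand) and chr2:164769779-164769928 (plus strand) of GRCm38.p6.
Mcm6: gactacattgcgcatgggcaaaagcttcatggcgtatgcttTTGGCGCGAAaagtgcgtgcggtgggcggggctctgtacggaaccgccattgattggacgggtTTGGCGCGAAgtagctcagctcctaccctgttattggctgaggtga
Rrm1: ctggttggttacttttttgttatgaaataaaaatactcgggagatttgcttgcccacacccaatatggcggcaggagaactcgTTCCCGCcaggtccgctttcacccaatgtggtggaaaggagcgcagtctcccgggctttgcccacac
Cdk1: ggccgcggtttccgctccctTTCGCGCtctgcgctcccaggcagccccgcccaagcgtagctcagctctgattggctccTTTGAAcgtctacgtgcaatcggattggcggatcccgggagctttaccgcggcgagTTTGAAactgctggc
Mki67: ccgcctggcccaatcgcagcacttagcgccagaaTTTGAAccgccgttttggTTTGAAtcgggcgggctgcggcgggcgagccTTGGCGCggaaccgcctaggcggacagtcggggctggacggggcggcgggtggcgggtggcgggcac
Top2a: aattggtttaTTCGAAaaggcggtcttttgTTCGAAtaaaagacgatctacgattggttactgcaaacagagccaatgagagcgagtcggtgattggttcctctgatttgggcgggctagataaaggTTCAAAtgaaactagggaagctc
Ube2c: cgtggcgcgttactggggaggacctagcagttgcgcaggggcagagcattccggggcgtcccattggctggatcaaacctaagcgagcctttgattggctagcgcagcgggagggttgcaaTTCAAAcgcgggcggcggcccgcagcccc

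The induction library held 1275 barcodes and 9305593 UMIs, and the expansion library 1208 barcodes and 29545561 UMIs. Of these, 1245 and 1191 cells with at least 500 genes and at most 25% mitochondrial UMIs were kept, and 4 barcode sequences occurred in both libraries. The median cell held 6765 UMIs in induction medium and 23184 in expansion medium, a 3.43-fold gap, so shares of cells are given after every cell was thinned to 2000 UMIs. Levels are CPM, counts scaled to the library total, and a log2 ratio is induction over expansion. The median gene had a log2 ratio of 0.22 among the 8480 genes that reached 50 UMIs in each library, so a ratio of 0 is below the middle of these libraries. Hepatocyte markers were found in nearly every cell: at least 2 of 10 hepatocyte markers were found in 99.49% or more of the thinned cells in every class by G2/M genes. These 10 markers together stood at 61526 CPM in induction and 36149 CPM in expansion medium, so the rule of 2 markers is easily met. Markers of the leukocytes (Ptprc), endothelium (Cdh5, Kdr), macrophages (Adgre1), fibroblasts (Col1a1) and bile duct (Krt7) that define these cells had 0 UMIs in both libraries. Over whole lists, 4 of 7 endothelial, 5 of 8 macrophage, 5 of 6 lymphocyte, 4 of 8 stellate and fibroblast and 3 of 4 erythroid markers had 0 UMIs in both libraries. The endothelial, macrophage and lymphocyte lists summed to less than 2 CPM in each library. The stellate and fibroblast list stood at 13.5 CPM in induction and 29.6 CPM in expansion medium, nearly all of it Reln (121 and 864 UMIs), and the erythroid list at 3.80 and 1.84 CPM, all of it Alas2 (35 and 54 UMIs). Only 1 of 6 bile duct markers was at 0: Spp1, which encodes osteopontin, had 6086 UMIs in induction and 38419 in expansion medium (661 and 1307 CPM) and was found in 17.6% and 72.0% of thinned cells. Sox9 stood at 74.8 and 103 CPM and Epcam at 2.61 and 4.42 CPM, while Krt19 had 1 and 6 UMIs and Cldn4 0 and 5. The bile duct list as a whole, at 739 CPM in induction and 1415 CPM in expansion medium, was lower in induction medium as the replication and mitosis genes were, and its part in their ratios was not tested.

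Both groups of genes were less abundant in induction medium, and none of the 37 genes had a ratio above 1. The 18 S phase genes together stood at 210 CPM in induction and 324 CPM in expansion medium, 1.54-fold lower (log2 ratio -0.62, -0.70 to -0.55). The 19 G2/M genes together stood at 216 and 323 CPM, 1.49-fold lower (log2 ratio -0.58, -0.65 to -0.51). These intervals do not allow for the grouping of UMIs in few cells: 50% of the induction G2/M UMIs lay in 31 cells. Together the 37 genes took 0.0426% of the UMIs in induction and 0.0647% in expansion medium. At least 2-fold lower, with an interval that excluded a ratio of 1, were 4 S phase genes (Mcm3, Mcm5, Gins2 and Chaf1b) and 0 G2/M genes, where 4.96% of all 10903 genes with at least 50 UMIs met this rule. None of the 37 was at least 2-fold higher, against 8.4% of all genes. An interval wholly below a ratio of 1, whatever the size, was found for 16 of the 18 S phase genes and 15 of the 19 G2/M genes, against 17.4% of all genes. The same count above a ratio of 1 was 0 of the 37, against 40.7% of all genes. The median log2 ratio was -0.75 for the S phase genes (range -1.47 to -0.17) and -0.60 for the G2/M genes (-0.89 to -0.17), against 0.18 for all genes tested. Scaled to the median gene, which lowers every log2 ratio by 0.22, 9 S phase genes and 3 G2/M genes were at least 2-fold lower, against 7.25% of all genes.

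**Figure D1:**
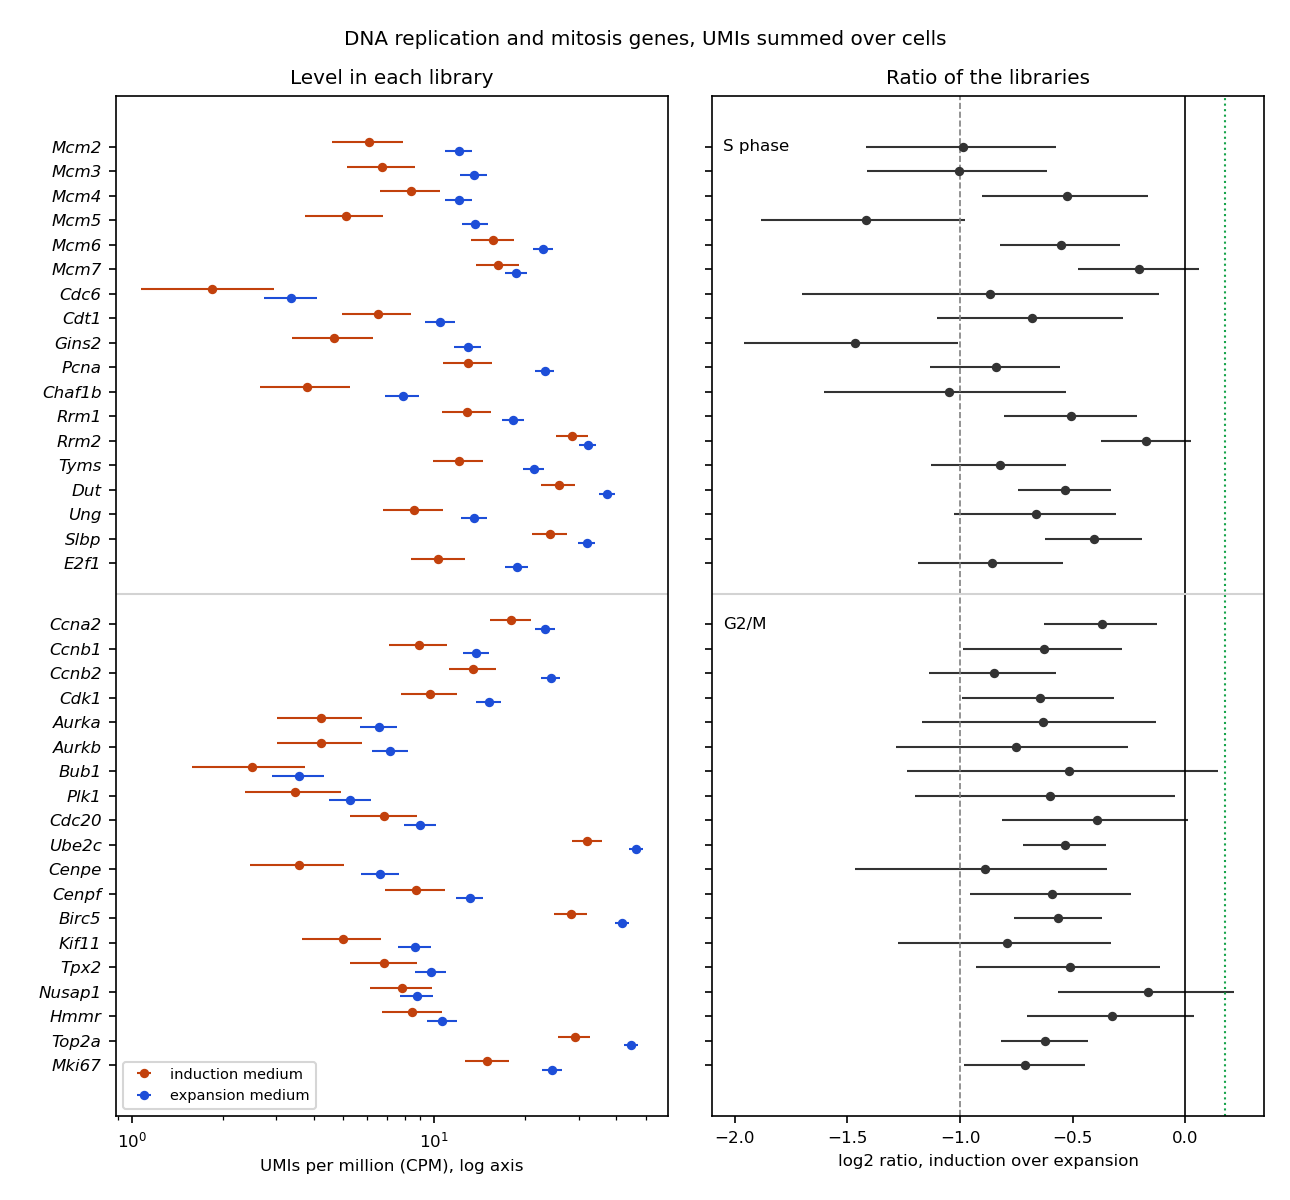
Level of each of the 37 genes (left, CPM on a log axis, induction above expansion in each row, bars are exact Poisson intervals) and log2 ratio of induction over expansion (right, exact binomial intervals; the dashed line marks a 2-fold lower level and the dotted line the median of all genes tested, 0.18). All 37 ratios lie left of 0, and those of Gins2 (-1.47) and Mcm5 (-1.42) lie farthest out.

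The 6 subunits of the MCM2-7 helicase, the ring that unwinds DNA ahead of the fork, stood together at 58.1 CPM in induction and 92.9 CPM in expansion medium, but they did not share 1 ratio. Mcm5 (chromosome 8 from 75109569 to 75128439 on GRCm38) had 47 UMIs in induction and 401 in expansion medium, or 5.11 and 13.6 CPM, a log2 ratio of -1.42 (-1.89 to -0.98). Mcm3 (chromosome 1 from 20802968 to 20820312) stood at 6.74 and 13.5 CPM (log2 ratio -1.003, -1.41 to -0.61), and Mcm2 at 6.09 and 12.0 CPM (-0.98, -1.42 to -0.57). Mcm4 (8.37 and 12.0 CPM) and Mcm6 (15.6 and 23.0 CPM) had log2 ratios of -0.53 and -0.55. Mcm7 (chromosome 5 from 138164583 to 138172422) stood at 16.2 CPM in induction and 18.6 CPM in expansion medium, and its interval held a ratio of 1 (log2 ratio -0.20, -0.47 to 0.06). The intervals of Mcm7 and Mcm5 did not overlap, although the proteins of both genes take part in the ring as 1 copy each. Mcm7 shares its locus with Ap4m1 and Cops6 on the opposite strand, and the strand setting of the counting is not given in the sources used here.

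Licensing and firing genes had the lowest ratio of the role groups as a sum, at 13.04 CPM in induction and 26.7 CPM in expansion medium (log2 ratio -1.04, -1.33 to -0.76). Gins2, a subunit of the GINS complex that joins the helicase when an origin fires, had the lowest ratio of the 3, with 43 UMIs in induction and 380 in expansion medium (4.67 and 12.9 CPM, log2 ratio -1.47, -1.96 to -1.01). It was found in 0.712% of thinned induction cells and 2.40% of thinned expansion cells. Gins2 (chromosome 8 from 120578633 to 120589304) overlaps Gse1 and Gm20388 on the other strand. The helicase loaders Cdc6 (1.85 and 3.37 CPM, log2 ratio -0.87) and Cdt1 (6.52 and 10.4 CPM, -0.68) had intervals below a ratio of 1, from -1.70 to -0.12 for Cdc6 with its 17 UMIs in induction medium.

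Among fork and chromatin genes, Pcna, the sliding clamp of the DNA polymerases, had 119 UMIs in induction and 681 in expansion medium (12.9 and 23.2 CPM, log2 ratio -0.84, -1.13 to -0.56). Chaf1b (chromosome 16 from 93883901 to 93906115), a subunit of the CAF-1 complex that puts histones on new DNA, stood at 3.80 and 7.86 CPM (-1.05, -1.60 to -0.53). Genes of nucleotide supply were closer to an equal level, at 79.2 CPM in induction and 109 CPM in expansion medium as a sum (log2 ratio -0.46). Rrm2 (chromosome 12 from 24708241 to 24714146), the subunit of ribonucleotide reductase that limits its activity in S phase, stood at 28.6 and 32.2 CPM, and its interval held a ratio of 1 (-0.17, -0.38 to 0.03). Rrm1, the large subunit of the same enzyme, stood at 12.8 and 18.2 CPM (-0.51, -0.81 to -0.22). The thymidylate synthase Tyms had 12.1 and 21.4 CPM (-0.82) and the dUTPase Dut 25.8 and 37.3 CPM (-0.54). Of the remaining S phase genes, the uracil glycosylase Ung stood at 8.59 and 13.6 CPM, Slbp, which binds histone mRNA, at 24.1 and 32.0 CPM, and E2f1, itself one of the E2F factors, at 10.3 and 18.7 CPM (log2 ratio -0.86, -1.19 to -0.54).

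Mitotic genes lay in a narrower range. The cyclins and their kinase stood together at 50.0 CPM in induction and 76.4 CPM in expansion medium (log2 ratio -0.61). Ccnb2, a B-type cyclin, had 124 UMIs in induction and 714 in expansion medium (13.5 and 24.3 CPM, -0.85, -1.14 to -0.57). Ccnb1 stood at 8.91 and 13.7 CPM (-0.63), the cyclin A gene Ccna2 at 17.9 and 23.2 CPM (-0.37), and Cdk1, the kinase that these cyclins activate, at 9.67 and 15.1 CPM (-0.65). The mitotic kinases Aurka, Aurkb, Bub1 and Plk1 together stood at 14.5 CPM in induction and 22.6 CPM in expansion medium (-0.64), with log2 ratios from -0.75 for Aurkb to -0.52 for Bub1. The interval of Bub1, from -1.23 to 0.15, held a ratio of 1, with 23 UMIs in induction and 105 in expansion medium.

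Proteins that attach chromosomes and end mitosis came next. Cenpe, a kinetochore motor, stood at 3.59 CPM in induction and 6.63 CPM in expansion medium and had the lowest ratio of the G2/M genes (log2 ratio -0.89, -1.47 to -0.35). Cenpf, a kinetochore protein, stood at 8.69 and 13.1 CPM, and Birc5, or survivin, of the chromosomal passenger complex, at 28.3 and 41.7 CPM (-0.56, -0.76 to -0.37). Ube2c, the ubiquitin conjugating enzyme of the anaphase-promoting complex, had 295 UMIs in induction and 1365 in expansion medium (32.1 and 46.4 CPM, -0.53, -0.72 to -0.35). Its activator Cdc20 stood at 6.85 and 8.98 CPM with an interval from -0.81 to 0.01. Of the spindle genes, the motor Kif11 stood at 4.999 and 8.64 CPM (-0.79) and the Aurora A activator Tpx2 at 6.85 and 9.77 CPM (-0.51). Nusap1 (7.82 and 8.78 CPM, -0.17, -0.56 to 0.22) and Hmmr (8.48 and 10.6 CPM, -0.32, -0.70 to 0.04), which bind or organise spindle microtubules, had intervals that held a ratio of 1. Top2a, the topoisomerase that untangles sister chromatids, had 268 UMIs in induction and 1317 in expansion medium (29.1 and 44.8 CPM, -0.62, -0.82 to -0.43), and Mki67, the source of the Ki-67 antigen, stood at 15.0 and 24.5 CPM (-0.71, -0.98 to -0.45). Ube2c, Cdc20, Ccna2 and Nusap1 overlap a gene on the opposite strand, as Cdt1 does one on its own strand, which makes the split of their UMIs uncertain.

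At matched depth, each gene was found in a smaller share of cells in induction medium. Top2a was found in 3.42% of induction cells and 6.95% of expansion cells, Birc5 in 3.56% and 6.68%, and Ube2c in 3.29% and 6.51%. Mcm5 was found in 0.761% and 2.63%, and Rrm2 in 3.78% and 5.41%. Over the 37 genes, the share was 1.21-fold (Mcm7) to 3.45-fold (Mcm5) lower. Free RNA could add to such shares. Y-linked UMIs, which cells with much Xist should lack, were found in 0.633% of 373 induction cells and 1.504% of 357 expansion cells with at least 5 Xist UMIs, against 27.1% of induction cells and 22.2% of expansion cells with 0 Xist UMIs. These 2 kinds of gauge cells had median depths of 7199 and 6678 UMIs in induction medium and of 24022 and 21855 UMIs in expansion medium before thinning. Doublets of a cell with Xist and a cell with Y-linked UMIs could also give Y-linked finds in cells with Xist. Doublets were kept, and their part was not tested. This gauge counts any of 4 Y-linked genes, which together stood at 107 CPM in induction and 87.1 CPM in expansion medium. It is therefore no floor for a single gene at another level. At or below its value were 1 S phase and 3 G2/M genes in induction medium and 2 and 6 in expansion medium. Among them were Cdc6 (0.394% and 0.669%) and Bub1 (0.373% and 0.714%). Their shares rest on few cells (means of 4.85 and 7.97 for Cdc6), and the part of free RNA in them was not tested.

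The number of members per cell separated the libraries at low counts. At least 2 G2/M genes were found in 6.55% of induction cells (5.26 to 8.11) and 12.8% of expansion cells (11.0 to 14.9), as means over 100 thinning draws of 1231 and 1191 cells. At least 2 S phase genes were found in 6.26% of induction cells (4.97 to 7.76) and 13.8% of expansion cells (11.9 to 15.9). Without thinning the G2/M shares were 9.64% and 46.0% and the S phase shares 24.6% and 78.3%, which follow the depth as well. At 4 or more G2/M genes the intervals overlapped, with 2.81% of induction cells (1.99 to 3.93) and 3.79% of expansion cells (2.77 to 5.02). At 6 or more the shares were 0.793% and 0.772%. For 4 or more S phase genes the shares were 1.04% (0.56 to 1.80) in induction and 2.74% (1.91 to 3.87) in expansion medium. At a depth of 4000 UMIs the shares with at least 4 G2/M genes were 6.10% (4.77 to 7.70) in induction and 10.0% (8.35 to 11.8) in expansion medium, so the overlap at 4 genes was seen at 2000 UMIs and not at 4000.

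**Figure D2:**
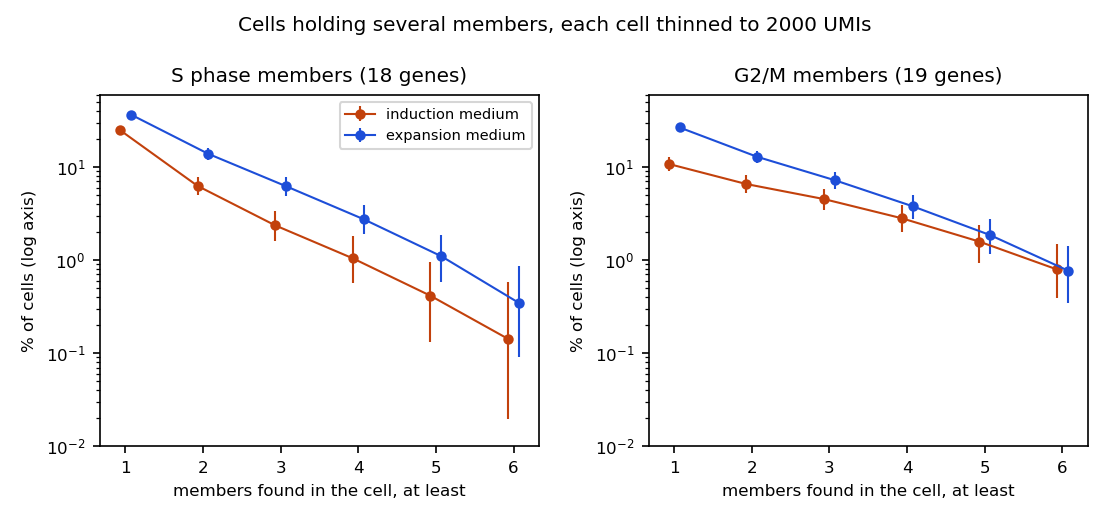
Share of cells (log axis) that held at least the given number of S phase genes (left) or G2/M genes (right) after thinning to 2000 UMIs, for induction and expansion medium, with exact binomial intervals. The induction share is below the expansion share at 1 to 5 genes in both panels, and the G2/M curves meet at 6 genes (0.793% and 0.772%).

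G2/M transcripts lay in fewer cells in induction medium, and those cells held more of the set. Of all G2/M UMIs, 50% lay in 31 induction cells (2.49% of the cells) and in 79 expansion cells (6.63%). The 5% of cells with most G2/M UMIs held 78.2% of them in induction and 41.9% in expansion medium. Thinning left this contrast in place, with 76.7% and 44.4%. A cell with any G2/M gene held 2.57 of them on average in induction and 2.01 in expansion medium at 2000 UMIs, and 26.1% (19.1 to 34.7) of such induction cells, against 14.3% (10.6 to 18.6) of such expansion cells, held 4 or more. Exactly 1 G2/M gene was found in 4.22% of induction cells (3.17 to 5.50) and 13.7% of expansion cells (11.8 to 15.8). The gauge of free RNA, which doublets could also raise, stood at 0.633% in induction and 1.504% in expansion medium. The part of free RNA in these single finds was not tested. S phase UMIs were spread more evenly: the top 5% of cells held 44.7% of them in induction and 27.3% in expansion medium, and 43.1% and 33.8% after thinning. A cell with any S phase gene held 1.41 of them in induction and 1.67 in expansion medium, the opposite order to that of the G2/M genes.

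The cells with G2/M transcripts also held S phase transcripts. In induction medium the S phase genes summed to 902 CPM in thinned cells with at least 2 G2/M genes and to 128 CPM in cells with none, a 7.07-fold difference. In expansion medium these sums were 711 and 222 CPM, a 3.20-fold difference. All 18 S phase genes were found in a larger share of the cells with at least 2 G2/M genes than of the cells with none, in both libraries. Rrm2 stood out, in 30.2% of induction cells with at least 2 G2/M genes (20.0 to 40.8) and 1.59% of those with none (0.90 to 2.47), and in 18.7% and 2.21% of the same classes of expansion cells. Ung differed least in induction medium, with 2.60% and 1.78%. For Mcm5 the shares were 5.39% (1.36 to 12.2) and 0.320% (0.10 to 0.93) in induction and 5.99% (2.72 to 10.9) and 1.72% (0.96 to 2.81) in expansion medium, so the intervals of the media overlapped in cells with G2/M transcripts and did not in cells without them. Gins2 had shares of 4.53% and 0.389% in induction and 5.98% and 1.63% in expansion medium. The G2/M genes were compared with each gene left out of its own rule: Top2a was found in 37.6% of induction cells with at least 2 others and 0.706% of those with none, and in 28.1% and 2.94% of the same classes of expansion cells. Among cells with at least 2 other G2/M genes, all 19 G2/M genes and 10 of the 18 S phase genes were found in a larger share of induction than of expansion cells. In this class the intervals of the media overlapped for each of the 37 genes. The genes were read in much the same cells, so their directions are not separate observations. Among cells with 0 others the induction share was the smaller one for all 37 genes. Of these last shares, 6 S phase and 17 G2/M genes in induction medium were at or below the value of the free RNA gauge. In expansion medium 2 and 14 were. That gauge counts 4 Y-linked genes together, so a share at or below it does not show that the finds of a single gene are free RNA. These classes are ranges of a count, not cell types: on average 80.7 induction and 153 expansion cells had at least 2 G2/M genes, and 52.0 and 163 had exactly 1.

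**Figure D3:**
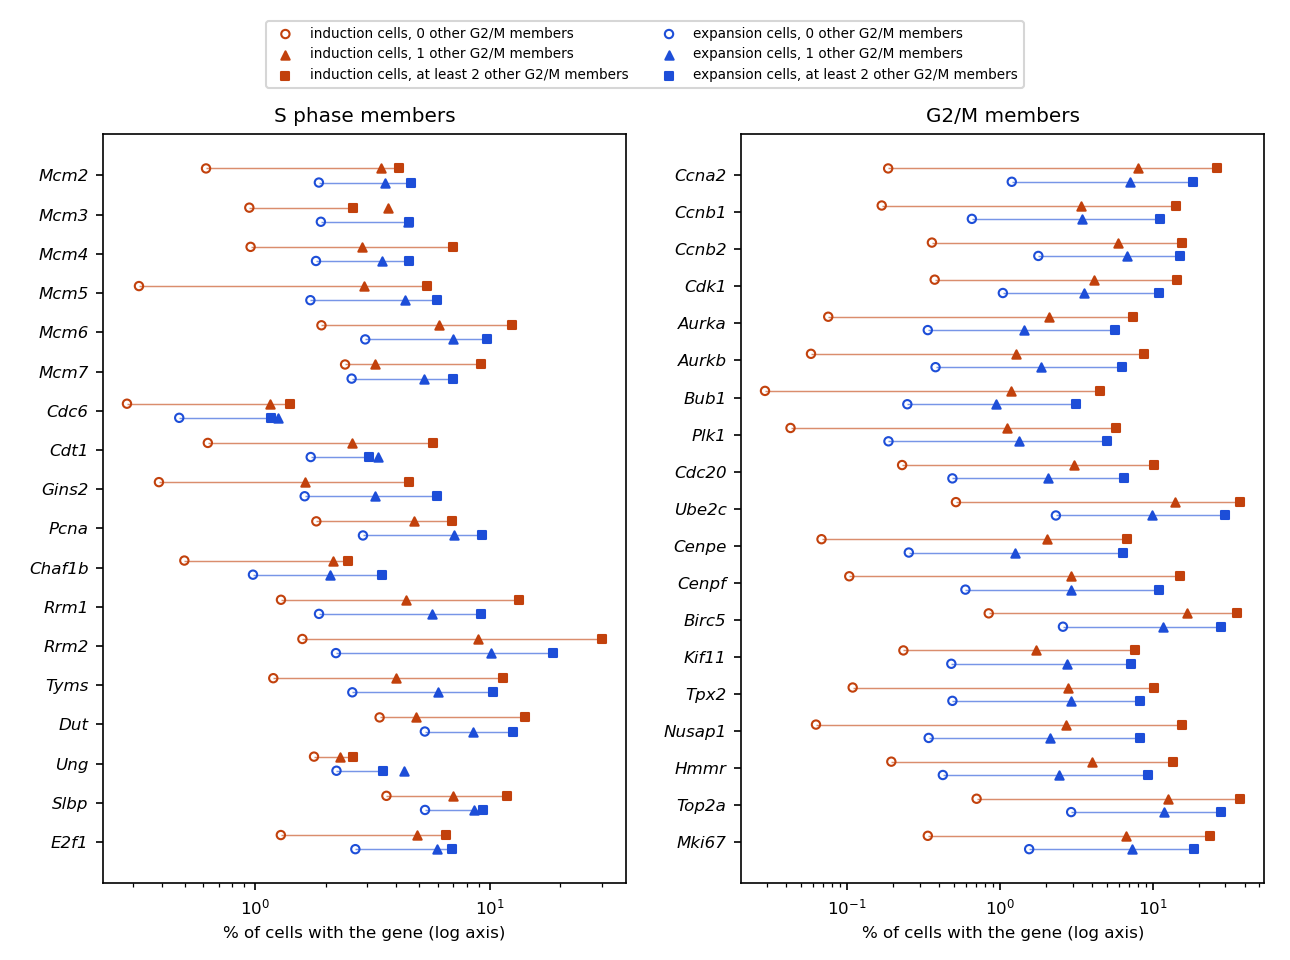
Share of thinned cells in which each S phase gene (left) or G2/M gene (right) was found (log axis), for cells with at least 2 (squares), 1 (triangles) and 0 (open circles) other G2/M genes, with induction above expansion in each row. Open circles of induction cells lie to the left of those of expansion cells for all 37 genes. The squares of induction cells lie to the right for all 19 G2/M genes, with intervals (not drawn) that overlapped between the media.

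S and G2/M transcripts met in the same cells to a degree. At least 2 genes of each group were found in 2.77% of induction and 4.50% of expansion cells, S phase genes alone in 3.49% and 9.32%, G2/M genes alone in 3.78% and 8.35%, and neither in 90.0% and 77.8%. Of the cells with at least 2 G2/M genes, 42.3% (31.1 to 53.5) in induction and 35.0% (27.7 to 43.4) in expansion medium also held 2 S phase genes, against 3.11% and 8.24% of the cells with 0 G2/M genes. Over thinned cells, the Pearson correlation of the summed S phase with the summed G2/M log counts was 0.41 in induction (1231 cells) and 0.30 in expansion medium (1191 cells). Pairs of G2/M genes had a median correlation of 0.13 in induction and 0.08 in expansion medium, and pairs of S phase genes 0.04 and 0.05. Such values describe cells that share 1 library and 1 depth, and in counts this sparse they are small.

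Cells with G2/M transcripts held hepatocyte transcripts, with a lower level of Alb than the other cells. Before thinning, induction cells with at least 2 G2/M genes held a median of 9714 UMIs against 6653 in cells with none, and expansion cells 25453 against 22697. Alb, the albumin gene, stood at 11556 CPM (11037 to 12093) in induction cells with at least 2 G2/M genes and 20423 CPM (20235 to 20613) in those with none. In expansion cells Alb stood at 1500 CPM (1366 to 1644) and 1856 CPM (1792 to 1921) in the same classes. Apoa2, an apolipoprotein gene, stood at 946 and 2826 CPM in these classes of induction cells and at 35.1 and 30.1 CPM in those of expansion cells. The transferrin gene Trf was near level, at 9352 and 9785 CPM in induction and 14073 and 15194 CPM in expansion cells. Secreted hepatocyte proteins of a list of 20 genes took 7.04% of the UMIs in induction cells with at least 2 G2/M genes and 10.4% in those with none, and 6.10% and 6.81% in expansion cells. No cell with at least 2 G2/M genes held 2 endothelial, macrophage, stellate, lymphocyte or erythroid markers in either library after thinning, and few such markers had UMIs at all. At least 2 bile duct markers were found in 4.09% (0.77 to 10.4) of the induction cells with at least 2 G2/M genes and 2.43% (1.63 to 3.56) of those with none, and in 13.1% (8.17 to 19.5) and 14.4% (12.1 to 16.9) of expansion cells, with overlapping intervals in each medium.

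Cells of both sexes were present, and the ratio of the media differed in size between them. Xist, the RNA of the inactive X chromosome, was found without Y-linked UMIs in 412 induction and 325 expansion cells, and Y-linked UMIs (Ddx3y, Eif2s3y, Kdm5d or Uty) without Xist in 503 and 505. Both were found in 22 induction and 275 expansion cells, and neither in 308 and 86. These classes were set from all UMIs of each cell, before thinning, and depth differed between the media. In expansion medium the median cell held 26175 UMIs where both were found and 16678 where neither was. In induction medium these medians were 8307 and 5701.5. The classes may thus select cells differently in the 2 media, which was not tested. In cells with Xist the G2/M genes summed to 343 CPM in induction and 396 CPM in expansion medium (log2 ratio -0.21, -0.31 to -0.11). In cells with Y-linked UMIs they summed to 155 and 257 CPM (-0.73, -0.85 to -0.60). The S phase genes summed to 282 and 389 CPM in cells with Xist (-0.46, -0.57 to -0.35) and to 152 and 275 CPM in cells with Y-linked UMIs (-0.86, -0.98 to -0.73). At least 2-fold lower in induction medium were 2 of 17 tested S phase and 0 of 19 G2/M genes in cells with Xist, where 3.26% of all 9100 genes tested met the rule, and 9 of 17 and 3 of 18 (Cdk1, Aurkb and Kif11) in cells with Y-linked UMIs, where 5.13% of 9473 did.

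Of the 37 log2 ratios, 32 were below 0 in Xist cells and 37 in cells holding Y-linked UMIs. Chaf1b (-1.31, -2.24 to -0.49) and Gins2 (-1.23, -2.04 to -0.50) had the lowest ratios in cells with Xist, and Mcm5 (-1.81, -2.81 to -0.96) and Aurkb (-1.74, -3.11 to -0.63) in cells with Y-linked UMIs, where Aurkb rested on 7 induction UMIs. Mcm7 stood at 27.4 CPM in induction and 20.7 CPM in expansion medium in cells with Xist, and at 9.18 and 16.3 CPM in cells with Y-linked UMIs. At least 2 G2/M genes were found in 9.33% of induction and 15.6% of expansion cells with Xist, and in 5.28% and 10.1% of cells with Y-linked UMIs. Cells with Xist alone made up 47.0% (35.7 to 58.3) of the induction cells with at least 2 G2/M genes and 31.8% (29.0 to 34.6) of those with none, and 33.1% (25.9 to 41.4) and 26.2% (23.4 to 29.3) of expansion cells. The difference of the ratios between the kinds of cells was not tested, and the animals behind them cannot be told apart from their sex.

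**Figure D4:**
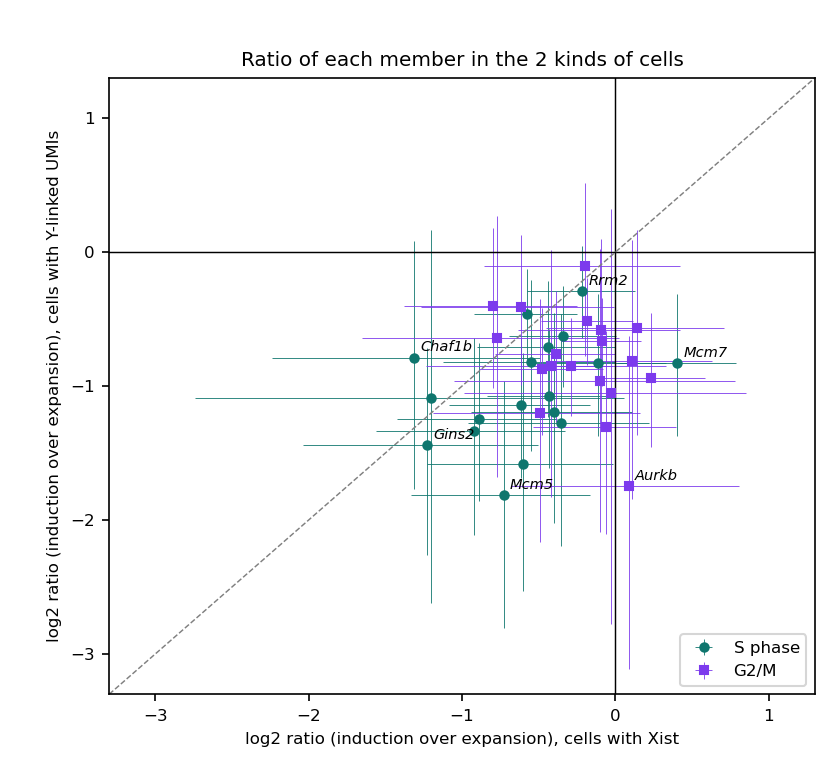
Log2 ratio of induction over expansion for each of the 37 genes, from Xist cells (x axis) and from cells holding Y-linked UMIs (y axis), with exact binomial intervals; the dashed line marks equal ratios. Most points lie below the dashed line, and Mcm7 (0.40 and -0.83) is farthest to the right.

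Other genes of replication and mitosis, listed by function, were lower as well, but not in every list. Of the 168 listed genes, 163 were tested. Of these, 22 met the 2-fold rule as lower in induction medium and 2 as higher (4.96% and 8.4% of all genes). The interval lay wholly below a ratio of 1 for 78 and above it for 21, against 17.4% and 40.7% of all genes. The median log2 ratio was -0.41. Genes of the replication fork came closest to the S phase genes: 6 of 24 were at least 2-fold lower and 21 of 24 had an interval below a ratio of 1 (median -0.81). Among them were 2810417H13Rik, the PCNA-binding factor Pclaf (29.5 and 60.5 CPM), the polymerase epsilon subunit Pole2 (5 UMIs in induction and 51 in expansion medium) and the primase subunit Prim1 (2.61 and 6.77 CPM). Of the chromatin genes 3 of 11 were at least 2-fold lower, with Uhrf1, which carries DNA methylation through replication, at 13.04 and 31.5 CPM and Asf1b, a histone chaperone, at 2.50 and 6.12 CPM, while the histone gene H2afz stood at 583 and 754 CPM (log2 ratio -0.37). Kinetochore and checkpoint genes (3 of 21 at least 2-fold lower, median -0.53) included Ska1 at 1.195 and 4.01 CPM and Cenpm at 11.5 and 23.8 CPM, but also Zwint at 71.6 CPM in induction and 55.1 CPM in expansion medium. Spindle and cytokinesis genes (5 of 21, median -0.55) included Cep55 at 0.978 and 3.30 CPM and Kif15 at 1.09 and 3.10 CPM, with Prc1 at 11.3 and 13.03 CPM.

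The remaining lists lay nearer to the median of all genes. Over all genes tested, 4.96% were at least 2-fold lower and 8.4% at least 2-fold higher by the same rule. Condensin and cohesin genes had 0 of 19 at least 2-fold lower (median -0.32), with Ncapg2 at 7.28 and 13.1 CPM, Ncaph at 2.72 and 4.73 CPM and the cohesin subunit Rad21 at 42.9 and 37.3 CPM. Origin genes outside the set had 2 of 14 (median -0.24), Ticrr (1.195 and 2.62 CPM) and Mcm10 (2.17 and 4.59 CPM), while the origin recognition subunit Orc4 stood at 18.6 and 12.998 CPM. Genes of mitotic entry and exit, most of them subunits or regulators of the anaphase-promoting complex, had 1 of 23 (median 0.04), the inhibitor Fbxo5 (1.195 and 4.01 CPM), with Cdc25c at 1.85 and 3.06 CPM and Arpp19 at 262 and 238 CPM. Nucleotide synthesis had 0 of 13 (median 0.16): the thymidine kinase Tk1 stood at 8.59 and 14.5 CPM, the nucleoside diphosphate kinase Nme1 at 388 and 438 CPM and the serine hydroxymethyltransferase Shmt1 at 52.2 and 26.2 CPM. Among E2F and DREAM regulators 2 of 17 were at least 2-fold lower (median -0.29), E2f7 (5 UMIs in induction and 47 in expansion medium) and E2f2 (1.195 and 2.79 CPM), with E2f4 at 28.5 and 34.8 CPM. Only 2 genes of all these lists were at least 2-fold higher, Rb1 (12.1 and 5.27 CPM, log2 ratio 1.19, 0.83 to 1.55) and Rbl2 (8.59 and 3.74 CPM, 1.198, 0.76 to 1.63). Both encode pocket proteins, which hold E2F factors in check. Rbl1, another pocket protein gene of the same list, went the other way (5.54 and 8.10 CPM, log2 ratio -0.55, -1.01 to -0.11). These genes were picked out and grouped with the ratios already known.

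**Figure D5:**
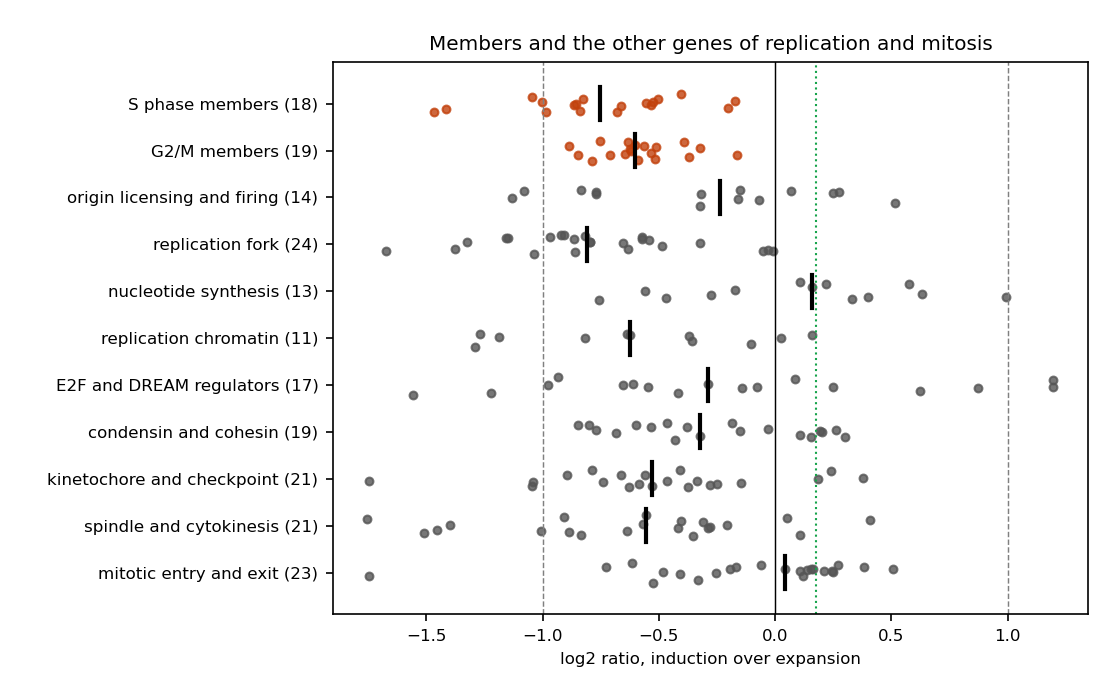
Log2 ratio of induction over expansion for the members (orange) and for the other listed genes of replication and mitosis (grey), 1 point per tested gene, with the number of genes in parentheses; black bars are medians, dashed lines mark 2-fold and the dotted line the median of all genes tested (0.18). The medians run from -0.81 for the replication fork to 0.16 for nucleotide synthesis.

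Genes outside the set that followed it from cell to cell were looked for among 6395 genes found in at least 2% of thinned expansion cells. Closest to the summed G2/M genes in expansion cells were H2afz (Pearson correlation 0.36 over 1191 cells), Hmgb2 (0.35), the tubulin genes Tubb5 (0.35) and Tuba1b (0.34), 2810417H13Rik (0.34), the centromere histone gene Cenpa (0.32), Stmn1 (0.29), Cdca3 (0.29), 2700094K13Rik (0.28) and Ptma (0.26). In induction cells, not used to choose them, their correlations ran from 0.26 (Ptma) to 0.50 (2810417H13Rik) over 1231 cells. Closest to the summed S phase genes were 2810417H13Rik (0.38), Hmgb2 (0.26), Uhrf1 (0.26), Hells (0.20), Dtl (0.19), Lig1 (0.19), H2afz (0.19), Stmn1 (0.18), Smc2 (0.18) and Tipin (0.18), with correlations from 0.10 (Tipin) to 0.39 (2810417H13Rik) in induction cells. Of these genes, Tubb5 stood at 350 CPM in induction and 502 CPM in expansion medium, Hmgb2, a chromatin protein, at 48.8 and 86.0 CPM, and Dtl, which marks replication factors for destruction, at 6.96 and 17.6 CPM.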

How the data were processed

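Single cells of 2 droplet libraries (10x Genomics Chromium, per the labels' protocols) were analysed. The deposited values are UMI counts for every gene and barcode, not normalized, made with Cell Ranger 2.1.1 and build mm10, per the submitters' processing notes; for the annotation release, the cell calling and the strand setting, the sources used here give nothing. Cells with at least 500 genes and at most 25% mitochondrial UMIs were kept (30 induction and 17 expansion barcodes left out). UMIs were summed over cells and divided by the library total (CPM); a count of 3 UMIs is 0.326 CPM in induction and 0.102 CPM in expansion medium. Intervals at 95% are exact Poisson (levels), conditional binomial (ratios) and Clopper-Pearson (shares), and cover counting error only. Those of levels and ratios treat UMIs as independent and leave out spread between cells. Genes with at least 50 UMIs over both libraries were called at 2-fold with an interval excluding a ratio of 1. Cells of at least 2000 UMIs (1231 induction, 1191 expansion; 14 and 0 left out) were thinned without replacement 100 times, and shares are means over draws, with intervals from the rounded mean count; correlations with genes outside the set used 10 draws. Doublets were kept; Scrublet (scanpy 1.11.5) marked 2 induction and 4 expansion cells. The code was tested on simulated counts, drawn independently for each gene. These did not hold the grouping of UMIs in few cells, so the test says nothing of the intervals under such grouping.

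All members could be named; of each other list, the most abundant gene and the 2 largest ratios; 10 genes most correlated with each sum; all cell type markers. The members and lists were chosen with earlier results of these data known. The shares with at least 4 G2/M members, the counts of intervals below a ratio of 1 and the use of several draws were added after seeing the data. Gene coordinates are from GENCODE M21 (GRCm38, the assembly that mm10 denotes), promoters from RefSeq (GRCm38.p6). The tools were Python 3.11.15 with scipy 1.17.1, numpy 2.4.6 and pandas 2.3.3. Alternatives changed the cell filter, scaling, weighting, depth, minimum and number of members.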

Additional observations from a re-analysis of the deposited data

Results flagged for a closer look

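Mcm7, a subunit of the replicative helicase, had log2 ratios (induction over expansion) on opposite sides of 0 in the 2 kinds of cells. In cells with Xist it was 0.40 (0.01 to 0.79), from 84 UMIs in induction and 170 in expansion medium. In cells with Y-linked UMIs it was -0.83 (-1.38 to -0.31), from 37 and 196 UMIs. The difference was not tested, each kind of cell comes from 1 library per medium, and Mcm7 was the only one of the 37 genes with intervals wholly on opposite sides of 0.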

How the results depend on the processing

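The log2 ratios of the 37 genes were below 0 under all 9 settings of cells, scaling and weighting except in cells with Xist (32 of 37), and no summed or median ratio changed sign. The summed ratios of S phase and G2/M genes were -0.46 and -0.21 in Xist cells, -0.86 and -0.73 in cells with Y-linked UMIs, -0.83 and -0.78 without mitochondrial and ribosomal protein genes in the total, -0.84 and -0.80 scaled to the median gene, -0.78 and -0.88 with equal weight for every cell, and -0.78 and -0.87 when cells were thinned before summing; the G2/M median was -0.18 in cells with Xist. Counts of S phase genes at least 2-fold lower were 2 under the stricter cell filter (1000 genes, 10% mitochondrial UMIs; 4.52% of all genes tested), 2 in Xist cells (3.26%), 9 in cells with Y-linked UMIs (5.13%), 9 without mitochondrial and ribosomal protein genes (6.98%), 9 scaled to the median gene (7.25%) and 2 thinned (3.33%). For G2/M genes they were 3 in cells with Y-linked UMIs, 2 without mitochondrial and ribosomal protein genes, 3 scaled to the median gene, 4 with equal weight (6.2% of all genes) and 1 thinned. Intervals below a ratio of 1 numbered 6 of the 10 S phase and 6 of the 7 G2/M genes still tested when thinned (10.9% of all genes), 5 of 19 G2/M genes in cells with Xist (11.3%), 9 of 18 in those with Y-linked UMIs (15%) and 9 of 10 at a minimum of 10 CPM (18.6%). Shares of cells are given for induction and then expansion. At least 2 S phase genes were found in 9.06% and 17.2% of cells with Xist, 4.14% and 11.2% of cells with Y-linked UMIs, 24.6% and 78.3% without thinning, 2.57% and 6.01% at 1000 UMIs, and 13.9% and 26.0% at 4000; at least 1 in 24.9% and 36.6%, at least 3 in 2.36% and 6.21%. At least 2 G2/M genes were found in 9.33% and 15.6% of cells with Xist, 5.28% and 10.1% of cells with Y-linked UMIs, 9.64% and 46.0% without thinning, 4.01% and 6.59% at 1000 UMIs, and 8.91% and 20.3% at 4000; at least 1 in 10.8% and 26.6%, at least 3 in 4.52% and 7.20%. At least 4 G2/M genes were found in 4.13% and 5.47% of cells with Xist, 2.104% and 2.74% of cells with Y-linked UMIs, 7.39% and 26.6% without thinning, 0.745% and 0.798% at 1000 UMIs and 6.10% and 10.0% at 4000. In all, 103 of the values recomputed moved by less than their interval or 1.5 times, and 65 by more. The 65 include shares at another depth or for another number of members, which measure another quantity and so differ by design. This tally is therefore no measure of robustness, and it left out the ratios of single genes. The cause of the other moves was not tested. Depth limits Cdc6, Bub1, Plk1, Cenpe and Chaf1b most, with 17 to 35 UMIs in induction medium. No paired analysis was possible because each medium had 1 library, and no replicate could be left out.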

Other observations

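Genes that act before S phase were split. Cyclin E genes, whose products drive entry into S phase, met the 2-fold rule as lower in induction medium, with Ccne1 at 5.22 CPM in induction and 13.3 CPM in expansion medium (log2 ratio -1.35, -1.81 to -0.91) and Ccne2 at 1.52 and 4.49 CPM (-1.56, -2.47 to -0.76). The cyclin D1 gene Ccnd1, which acts earlier in G1, stood at 558 and 553 CPM (0.01, -0.03 to 0.06). Of 14 tested G1 cyclins, cyclin-dependent kinases, inhibitors and Myc, these 2 cyclin E genes were at least 2-fold lower and 0 at least 2-fold higher, where 4.96% and 8.4% of all genes were.

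By class of cell, Ccnd1 stood in opposite order in the 2 media, with overlapping intervals in induction medium only. It stood at 633 CPM (516 to 768) in induction cells with at least 2 G2/M genes and 492 CPM (463 to 522) in those with none, and at 429 CPM (359 to 509) and 572 CPM (537 to 609) in expansion cells. These intervals leave out spread between cells, so their overlap or lack of it is no test of the classes. The difference between the media was not tested, and the classes rest on 80.7 induction and 153 expansion cells. Cdkn1a, the gene of the cell cycle inhibitor p21, was within its counting error between these classes, at 172 and 168 CPM in induction and 95.9 and 102 CPM in expansion cells.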
